A study of Mus musculus with 6 samples.

Results

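Hyaluronan is a long sugar polymer of the extracellular matrix. It is spun out at the plasma membrane by the hyaluronan synthases, tied into larger networks by binding proteins and proteoglycans, read by surface receptors such as CD44, and cut by hyaluronidases. In skin it is abundant around dermal fibroblasts and between basal keratinocytes. The genes described here were 10 members of this system: the synthases Has1, Has2 and Has3, the hyaluronidases Hyal1 and Hyal2, the receptors Cd44 and Hmmr, and the matrix partners Tnfaip6, Hapln1 and Vcan. They were chosen by function, with earlier results of the same comparison of genotypes in view, so their differences between genotypes are given as a description, and nothing is read from how many of them pass a threshold. They are 10 of 21368 genes that the arrays measure under a RefSeq name, and 17 probes measured them.

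The samples were cells labelled as melanocyte stem cells, the follicle's store of future melanocytes, sorted from mouse skin as GFP-positive cells of low side scatter. All were from males, 3 WT and 3 K14-SCF Tg, each on its own 1-colour array, and the labels give no age. In K14-SCF Tg animals basal keratinocytes overproduce stem cell factor (the KIT ligand) under the keratin 14 promoter. Its level in the sorted cells is not given here. The sources used here do not say which gene drives GFP or whether replicates were separate animals, so the spread between arrays may be technical.

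Levels are log2 of a probe's processed signal over its array's 75th percentile, given as mean ± SD over 3 arrays, and a difference is K14-SCF Tg minus WT on that scale with its moderated SE. Differences are between arrays at 1 probe. Probes differ in how brightly they read, so where genes are ordered or summed by brightness, that is signal and not transcript number. On each array, 78.3% to 87.1% of 55681 probes exceeded background clearly, and 0 spots were saturated. One slide held WT replicate 1 alone and another all other arrays, with both replicates 3 in its row 2 and the rest in row 1. With 3 arrays a genotype, precision is limited. Of 15 melanocyte lineage markers 14 were tested, and each of these 14 was well above background on all 6 arrays. Markers of other cells were too, among them 13 of 14 tested leukocyte, 13 of 15 fibroblast and 12 of 15 keratinocyte genes, so this count alone does not set the label apart. The brightest melanocyte probes were those of Mlana (6.06 ± 0.18 in WT, 6.12 ± 0.14 in Tg), Dct (5.78 ± 0.26 and 5.89 ± 0.19) and Pmel (5.67 ± 0.44 and 5.65 ± 0.19). Oca2 had no tested probe. Probes of other lists read higher than Mlana: Itgam of the leukocyte list (7.46 ± 0.22 in WT, 7.49 ± 0.06 in Tg), Trp63 of the keratinocyte list (6.93 ± 0.19 and 7.02 ± 0.07) and Enpp2 of the dermal papilla list (6.15 ± 0.12 and 6.20 ± 0.12). The single brightest probe of a list thus does not set the label apart either. Other genes of those lists were dim, such as Ptprc (-1.96 ± 0.49 in WT), Krt1 (-5.87 ± 0.24) and Alx4 (-4.51 ± 0.48). The melanocyte list held dim genes too, such as Gpr143 (-3.20 ± 1.01). Summed over tested genes, with the 75th percentile as 1, arrays read 284 to 388 for the melanocyte list. The sums were 165 to 215 for leukocyte, 117 to 149 for keratinocyte and 70.8 to 83.1 for dermal papilla genes.

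Promoter windows of 8 members were found in RefSeq (GRCm38.p6), and the set of windows used here held none for Has2 or Has3. The 250 bases before the gene start are shown for Tnfaip6, the 1 member whose probes all separated the genotypes, and for Cd44, whose levels overlapped throughout. Capitals mark matches on either strand to the motifs searched: the AP-1 motif TGANTCA, the cyclic AMP element TGACGTCA, the E-boxes CACGTG and CATGTG, the TATA box TATAAA and the GC box GGGCGG.
Tnfaip6, chr2:52037863-52038112, plus strand: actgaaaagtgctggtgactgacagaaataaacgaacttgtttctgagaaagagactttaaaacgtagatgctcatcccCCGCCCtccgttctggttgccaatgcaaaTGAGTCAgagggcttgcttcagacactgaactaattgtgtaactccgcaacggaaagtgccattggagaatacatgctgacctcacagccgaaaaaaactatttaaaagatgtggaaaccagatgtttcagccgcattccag
Cd44, chr2:102901666-102901915, minus strand: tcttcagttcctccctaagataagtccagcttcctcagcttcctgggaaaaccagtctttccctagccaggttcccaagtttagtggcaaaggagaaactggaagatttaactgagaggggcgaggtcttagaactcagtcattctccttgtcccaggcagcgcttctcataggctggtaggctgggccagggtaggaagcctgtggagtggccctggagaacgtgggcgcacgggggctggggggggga
The Tnfaip6 window held the AP-1 motif as TGAGTCA, starting 142 bases before the gene start, and a GC box on the reverse strand, 171 bases before it. The AP-1 motif was in 6.75% of all 32851 windows and, among the 8 members, in Tnfaip6 alone. GC boxes were in 32.7% of all windows and in 5 members: Hmmr, Hyal1, Hyal2, Tnfaip6 and Vcan. Has1 held the cyclic AMP element (1.55% of all windows). The E-boxes (6.02% and 12.3% of all windows) and the TATA box (12.4%) were in 0 members, and the Cd44 window held none of the motifs searched.

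Tnfaip6 stood lower on every K14-SCF Tg array than on any WT array at each of its 3 probes. Tnfaip6 encodes TSG-6, a secreted protein that binds hyaluronan and transfers heavy chains of inter-alpha-inhibitor onto it. Its brightest probe read 1.32, 1.46 and 1.97 on WT replicates 1 to 3 and 0.37, -0.86 and -0.16 on Tg replicates 1 to 3. The lowest WT array lay 0.96 above the highest Tg array on the log2 scale. The means were 1.58 ± 0.34 and -0.22 ± 0.61, a difference of -1.80 with an SE of 0.39, or 3.48-fold lower in Tg.

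The other probes of Tnfaip6 gave the same order of the genotypes. The second read 0.30, 0.53 and 1.08 in WT and -0.70, -1.83 and -1.40 in Tg, a difference of -1.95 (SE 0.38) or 3.86-fold. The third read -2.86, -3.28 and -2.61 in WT and -3.68, -3.88 and -3.66 in Tg, a smaller difference of -0.82 (SE 0.26) or 1.77-fold. Within the slide shared by WT replicates 2 and 3 and all Tg arrays, the 3 probes stood at -1.93, -2.12 and -0.79. In row 1 of the slides they stood at -1.63, -1.68 and -0.71, and between the pair of arrays in row 2 at -2.13, -2.49 and -1.05. Among 823 genes with at least 3 tested probes, 4 (0.486%), Tnfaip6 among them, had all probes lower in Tg with no overlap. This comparison is part of what brought the gene onto the list, so nothing is read from that share.

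Vcan encodes versican, a large proteoglycan that binds hyaluronan and is a classical marker of the dermal papilla, and its 3 probes did not give 1 answer. The first read -2.38, -1.25 and -0.67 in WT and -2.81, -1.83 and -3.22 in Tg, a difference of -1.19 (SE 0.57) with the genotypes overlapping, since WT replicate 1 lay below Tg replicate 2. The third, designed to the same RefSeq transcript (NM_172955), read -3.77, -3.41 and -2.21 in WT and -6.29, -3.36 and -4.52 in Tg, where replicate 1 was not well above background, a difference of -1.59 (SE 0.82). The second, designed to another transcript (NM_001081249), read -1.35, -5.30 and -1.71 in WT and -1.98, -2.80 and -3.60 in Tg, a difference of -0.0073 (SE 1.12). WT replicate 2 was the lowest of all 6 arrays at that probe and not at the others. The first probe gave -0.51 in row 1 and -2.55 between the pair in row 2, so the genotypes lay farther apart in row 2. The exons that the probes read were not analysed here.

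**Figure D1:**
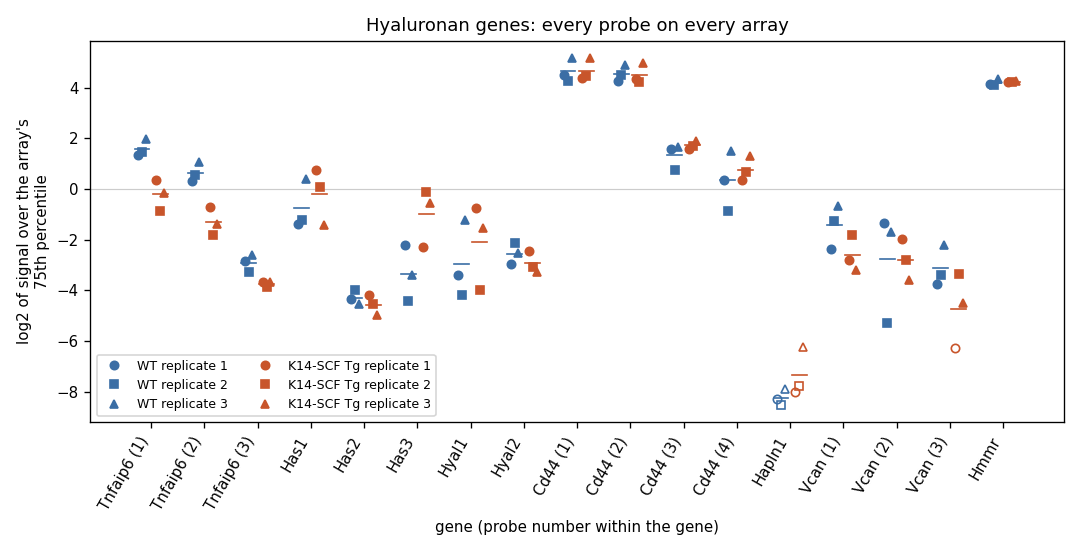
Log2 of signal over the array's 75th percentile (vertical axis) for all 17 probes of the 10 hyaluronan genes, in WT (blue) and K14-SCF Tg (orange), with replicates by symbol, means as bars and open symbols where a spot was not well above background. The WT and Tg points separate at the 3 Tnfaip6 probes, overlap at the others and lie at background for Hapln1.

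Hapln1, which encodes the link protein that pins proteoglycans onto hyaluronan and whose gene lies next to Vcan on chromosome 13 with 0 protein-coding genes between, was not well above background on any of the 6 arrays. Its readings ran from -8.53 (WT replicate 2) to -6.23 (Tg replicate 3). It was not tested and no fold is given.

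The 3 synthase genes had differences of unlike sign and size. Has3, which makes mostly shorter chains, read -2.22, -4.42 and -3.41 in WT and -2.28, -0.13 and -0.56 in Tg. Tg replicates 2 and 3 lay above every WT array, while Tg replicate 1 lay 0.06 below WT replicate 1, so the genotypes just overlapped. The means were -3.35 ± 1.10 and -0.99 ± 1.14, a difference of 2.36 (SE 0.78) or 5.12-fold higher in Tg, with 2.92 within the shared slide, 2.11 in row 1 and 2.85 in row 2. Its readings spanned 19.5-fold over the 6 arrays, the widest span of the 16 probes tested, and it had 1 probe.

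Has2, the main synthase of fibroblasts and of the embryo, read -4.35, -4.001 and -4.55 in WT and -4.18, -4.55 and -4.96 in Tg. The genotypes overlapped, with a difference of -0.26 (SE 0.30). Has1 read -1.38, -1.23 and 0.40 in WT and 0.75, 0.08 and -1.44 in Tg. Its pooled difference of 0.53 (SE 0.74) joined opposite values, 1.72 in row 1 and -1.84 between the pair in row 2.

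**Figure D2:**
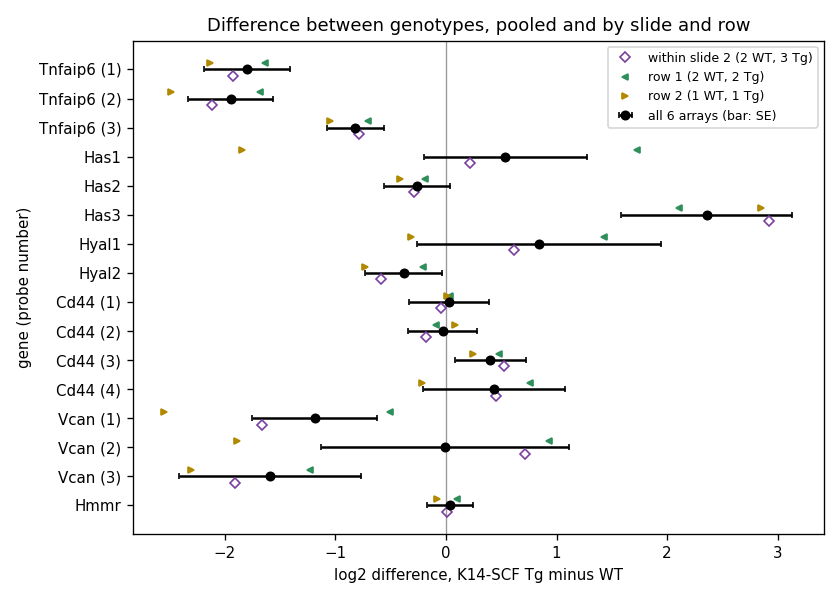
Log2 difference between K14-SCF Tg and WT (horizontal axis) for the 16 tested probes, from all 6 arrays with its SE (black), within the slide that holds both genotypes (open diamonds), and in each slide row (triangles). Tnfaip6 stayed below 0 and Has3 above 0 in each of them, while Has1, Hyal1, Hmmr, the second Vcan probe and Cd44 probes 2 and 4 had opposite signs in the rows.

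The hyaluronidases overlapped between genotypes. Hyal1, the lysosomal enzyme, read -3.42, -4.21 and -1.23 in WT and -0.76, -4.01 and -1.56 in Tg. Both genotypes held dim and bright arrays, 10.9-fold apart at the extremes, and the difference of 0.85 had an SE of 1.10. It was 0.17 without Tg replicate 1, 0.22 without WT replicate 2, 1.70 without WT replicate 3 and 1.79 without Tg replicate 2. Hyal2, which is anchored to the cell surface and starts the cutting of long chains, read -2.97, -2.15 and -2.55 in WT and -2.44, -3.09 and -3.28 in Tg, a difference of -0.38 (SE 0.35). The within-genotype SD of Hyal1 (1.62) was above that of 91.4% of tested probes in the same 25% of brightness, and that of Hyal2 (0.43) above 30.6%.

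Cd44, the main surface receptor for hyaluronan, had differences well within their SE at its 2 brightest probes. The first read 4.50, 4.27 and 5.16 in WT and 4.37, 4.48 and 5.17 in Tg, with a difference of 0.03 (SE 0.36). The second read 4.25, 4.50 and 4.88 in WT and 4.35, 4.23 and 4.96 in Tg, with a difference of -0.03 (SE 0.31). At both, replicate 3 of each genotype, in row 2 of the slide, was the highest array. The dimmer probes, numbers 3 and 4, stood at 0.40 (SE 0.32) and 0.43 (SE 0.64), and number 4 spread widely, from -0.88 (WT replicate 2) to 1.51 (WT replicate 3). All 4 probes were designed to the same RefSeq transcript (NM_009851), and the genotypes overlapped at each.

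Hmmr, the receptor RHAMM, which also acts at the mitotic spindle, was the steadiest member. It read 4.15, 4.10 and 4.35 in WT and 4.23, 4.21 and 4.27 in Tg, a span of 1.19-fold over all arrays, with a difference of 0.04 (SE 0.21). Its within-genotype SD of 0.097 was below that of most probes of its brightness, at percentile 5.37 of the brightest 25%. Hmmr had 1 probe, so its level and steadiness rest on that probe alone. Of 20 proliferation genes 17 were tested, 7 with positive and 10 with negative differences (median -0.06), and 0 passed (limma, smallest adjusted p = 0.918). All 17 were dimmer than Hmmr, the brightest being Cdc20 (0.96 ± 0.19 in WT, 0.86 ± 0.32 in Tg).

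Over all members, 16 of 17 probes and 9 of 10 genes were tested, which needed a clear signal over background on 3 or more arrays. A gene counts here by its brightest tested probe. By limma's moderated test with Benjamini-Hochberg adjustment, 0 of the 9 passed, where 1 of all 18356 genes tested was called higher (0.00545%) and 0 lower (0%). The genotypes did not overlap for 1 member, Tnfaip6, against 5.42% of all genes lower and 5.13% higher. The same contrast was in view when the members were listed, so nothing is read from these counts.

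Fibroblast markers, like Tnfaip6 and the first Vcan probe, had mostly lower readings in Tg. Of 16 listed, 15 were tested, 10 with negative and 5 with positive differences (median -1.04, against -0.01 over all genes), and 0 passed (limma, smallest adjusted p = 0.563). Of the 15, 5 were lower and 1 higher with no overlap, against 5.42% and 5.13% of all genes. At limma's unadjusted p under 0.05, 6 were lower and 0 higher, against 2.57% and 2.85% of all genes. Their summed signal, in units of the array's 75th percentile, was 77.5, 50.9 and 31.9 on WT replicates 1 to 3 and 25.4, 13.8 and 14.2 on Tg replicates 1 to 3, so every Tg array was below every WT array. The brightest were the collagen genes Col1a2 (4.50 ± 0.72 in WT, 2.63 ± 0.72 in Tg), Col1a1 (3.23 ± 0.85 and 1.41 ± 1.11) and Col3a1 (2.94 ± 0.96 and 0.63 ± 1.20). These 3 made up between 49.0% and 85.4% of the sum on an array. The other 12, split off after the values were seen, summed to 11.7, 7.44 and 9.90 in WT and 5.003, 5.47 and 7.26 in Tg, apart by a narrow margin, and 5 of these 12 had positive differences. Fap was higher on every Tg array (2.19, SE 0.91), and Pdgfra (1.26, SE 0.97), Mfap5 (1.01, SE 1.26), Fbln1 (0.36, SE 0.56) and Pi16 (0.23, SE 0.28) overlapped, all 5 named after their values were seen. Of the 12, 7 had negative differences. Among these 7, Thy1 (-1.69, SE 0.34), Col5a1 (-1.29, SE 0.44) and Col6a2 (-1.04, SE 0.36), also named after their values were seen, were lower on every Tg array. The rest of the 7 overlapped. Dpt had no tested probe, and Pdgfra and Postn were not well above background on every array. Within WT the order of the sum over all 15 went the other way. Replicate 1 had the highest such sum and the lowest Tnfaip6 and Vcan readings at their first probes, and replicate 3 the reverse. For the other 12 markers this held in part: WT replicate 1 was again highest (11.7), but replicate 2 (7.44) and not replicate 3 (9.90) was lowest. Within Tg, replicate 1 had the highest sum over all 15 and the highest Tnfaip6 reading at probe 1. Vcan at its probe 1 was highest on replicate 2, which had the lowest sum. The other 12 markers were lowest on Tg replicate 1 (5.003) and highest on Tg replicate 3 (7.26). The part of fibroblast RNA in the Tnfaip6 and Vcan differences was not tested. In such sorted bulk samples fewer cells of a type and less RNA per cell cannot be told apart.

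**Figure D3:**
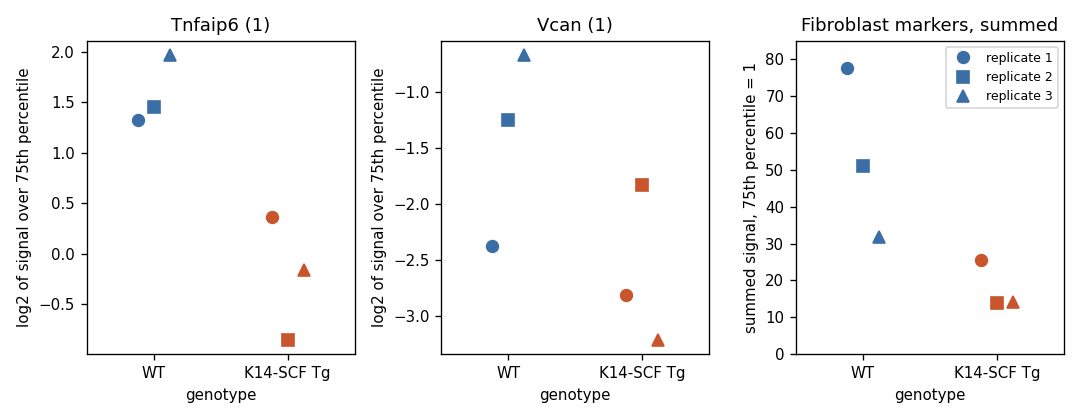
Tnfaip6 and Vcan at their first probes (log2 of signal over the 75th percentile) and the summed signal of 15 fibroblast markers (linear, array's 75th percentile set to 1), per array, with replicates by symbol. Tnfaip6 and the fibroblast sum are lower on every K14-SCF Tg array, and within WT replicate 3 is highest for Tnfaip6 and lowest for the fibroblast sum.

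In the other 8 marker lists the summed signals of the genotypes overlapped. Their medians lay between -0.65 (endothelial) and 0.40 (dermal papilla, without Vcan), and 0 of their genes passed (limma). Melanocyte lineage genes had a median of -0.02, with summed signals from 297 to 388 in WT and 284 to 338 in Tg. Medians were 0.09 for keratinocyte, 0.21 for leukocyte, 0.25 for mast cell and 0.15 for Schwann cell markers.

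The wider pathway was measured through 5 lists of 74 other genes, 66 of them tested, grouped by function with earlier results of these data known. By limma 0 of the 66 passed (smallest adjusted p = 0.669), and 33 had positive and 33 negative differences, with a median of 0.01 against -0.01 over all genes. At an unadjusted p under 0.05, 2 of the 66 were higher (Hyal3 and Ank3) and 1 lower (Habp4), where 2.85% of all genes were higher and 2.57% lower. That is about the share of all genes, and the 3 were named after their values were seen.

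Hyal3, a further hyaluronidase gene, lies close to Hyal1 on chromosome 9 with 1 protein-coding gene, Naa80, between them. It read -5.12, -3.89 and -5.43 in WT and -2.57, -1.85 and -3.62 in Tg. Every Tg array was above every WT array, with a difference of 2.13 (SE 0.60), which did not pass over all probes (limma, adjusted p = 0.726). Its neighbours Hyal1 and Hyal2 overlapped between genotypes, as given above, and the difference between the 3 genes was not tested. Of 8 tested genes of chain degradation, 3 had positive and 5 negative differences (median -0.08), and the bright ones included Hexa, a lysosomal hexosaminidase gene (-0.02, SE 0.37), the cell surface hyaluronidase Cemip2 (-0.34, SE 0.69) and the glucuronidase Gusb (-0.40, SE 0.31).

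The list of precursor and export genes holds enzymes on the way to the synthases' sugar nucleotides, and also Abcc5, a transporter, and Cmas, which activates sialic acid. Of its 12 tested genes, 5 had positive and 7 negative differences (median -0.03). Ugdh, which makes the UDP-glucuronic acid that all 3 synthases use, read 1.91 ± 0.15 in WT and 1.89 ± 0.23 in Tg, a difference of -0.02 (SE 0.24). Gpi1 (-0.04, SE 0.20) and Uap1 (-0.04, SE 0.22) act on the way to UDP-N-acetylglucosamine, and the other Uap1 probe had the opposite sign. With the hexokinase gene Hk1 (0.31, SE 0.39), these were the other bright ones. Pgm3 (1.71, SE 0.97, with its other probe of opposite sign) and Gfpt2 (1.55, SE 0.89), named after their values were seen, lay farthest from 0 with the genotypes overlapping, and 0 of the 12 passed (limma, smallest adjusted p = 0.948). With no overlap, 1 of the 12 was lower and 0 higher, against 5.42% and 5.13% of all genes. That gene was Ugp2 (-0.38, SE 0.22, with both its probes negative), also named after its values were seen.

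Other hyaluronan receptors had 7 positive and 2 negative differences among 9 tested (median 0.15), with 0 passing (limma, smallest adjusted p = 0.918). The brightest were the scavenger receptor Stab2 (0.62, SE 0.41), Layn (0.14, SE 0.38, with its other probe of opposite sign), Icam1 (-0.0019, SE 0.49) and Cemip (0.06, SE 0.34), which also counts under chain degradation. Stab1 (1.56, SE 0.68) and Tlr4 (1.35, SE 0.58), named after their values were seen, lay farthest from 0, also with overlap. Lyve1, the receptor of lymphatic vessels, had no tested probe.

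Other matrix partners had 9 positive and 13 negative differences among 22 tested (median -0.16), with 0 passing (limma, smallest adjusted p = 0.901). Habp4, an intracellular hyaluronan binding protein, read -0.35 ± 0.69 in WT and -1.40 ± 0.35 in Tg, a difference of -1.06 (SE 0.42), with no overlap. C1qbp (0.03, SE 0.22), Impg1 (-0.33, SE 0.24) and the link protein gene Hapln3 (-0.13, SE 0.28) were the other bright ones. Itih1 and Itih2 encode heavy chains of the inter-alpha-inhibitor that TSG-6 moves onto hyaluronan, and they stood at 0.44 (SE 0.23) and -0.24 (SE 0.35). Itih2 overlapped, as did Itih4 (-0.16, SE 0.56), and Itih3 and Itih5 had no tested probe. Of the 22, 1 (Itih1) was higher and 3 were lower with no overlap, against 5.13% and 5.42% of all genes.

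Partners of CD44 had 10 positive and 6 negative differences among 16 tested (median 0.07). The brightest were Msn (-0.09, SE 0.30) and Ezr (-0.25, SE 0.27), which tie CD44 to actin, Rhoc (0.20, SE 0.21) and Adam10 (0.04, SE 0.21), a protease that sheds CD44. Ank3, an ankyrin, stood at 1.79 (SE 0.46; limma, adjusted p = 0.669), above background on 2 of 3 WT arrays and with 2 of its 3 probes of that sign. Tiam1 and Mmp9 had no tested probe.

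**Figure D4:**
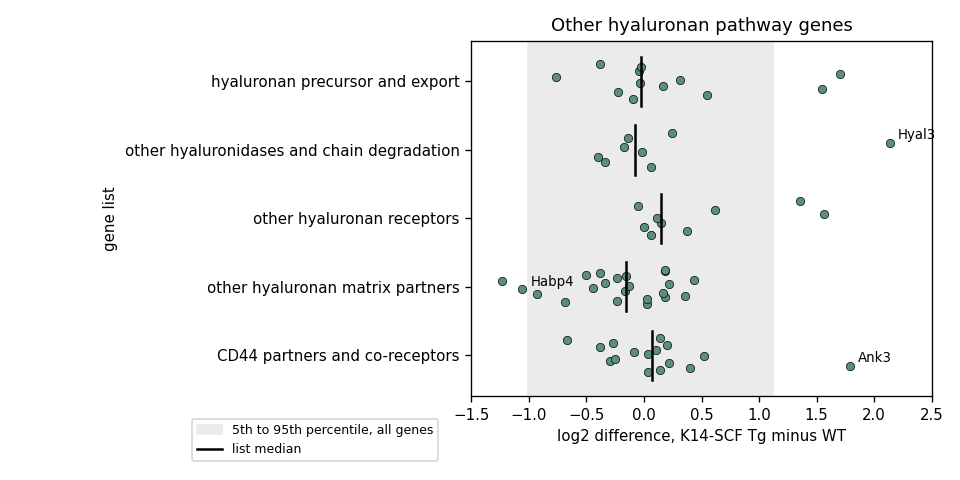
Log2 difference between K14-SCF Tg and WT (horizontal axis) for each tested gene of the 5 pathway lists, with the list median as a bar and the 5th to 95th percentile of all 18356 genes shaded. Most points lie in the shaded band, list medians run from -0.16 to 0.15, and Hyal3 lies farthest to the right at 2.13.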

How the data were processed

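RNA of sorted cells was amplified, labelled with Cy3 and hybridised to 6 Agilent mouse arrays, per the labels' protocols. The submitters' processing notes name Agilent Feature Extraction 10.7.1.1. Per the file headers, the deposited intensity values are processed signals, corrected for background and spatial trend on each array but not scaled across arrays, beside median spot and background signals, and flags that are other 0 or 1 values. The authors' value table holds a linear ratio: at least 99.8% of its values equal the processed signal over 1 constant per array, with a tolerance of 0.001. Its scale and direction are thus known and it is not centred per gene. How that constant was set is not stated in the sources used here. Its column medians were 0.170, 0.177 and 0.169 in WT and 0.184, 0.188 and 0.176 in Tg.

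Control and outlier spots were left out, and log2 signals were set against each array's 75th percentile. Probes were named through their RefSeq accession (28331 of 29786 matched, GRCm38.p6), and the files' design build is mm9. The 47693 probes well above background on at least 3 arrays were tested with limma 3.58.1 in R 4.3.3 (lmFit, eBayes, 2-sided, Benjamini-Hochberg over all tested probes, threshold 0.05), with 3 probes left out as outliers. The steps were checked on data with known changes. Members, lists and alternatives were chosen with earlier results of these data known. By rule the text names all members, the up to 4 brightest genes of each pathway list and genes past the threshold. Of the marker lists only some genes are printed.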

Additional observations from a re-analysis of the deposited data

How the results depend on the processing

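Of 18 alternatives, 0 called any of the 9 tested members by limma's adjusted p. Tnfaip6 ranged from -2.09 (without Tg replicate 1) to -1.48 (without Tg replicate 2), Has3 from 1.77 to 3.00 (without Tg replicate 1), Hyal1 from 0.17 (without Tg replicate 1) to 1.79 (without Tg replicate 2), and 7 of 9 members kept their sign in all 18. Cd44 and Hmmr, near 0, kept it in 13 and 16. Not all of the 18 could change a sign. The main estimate itself came back with no filter on dim probes, probes above background on all 6 arrays and the replicate block. It also came back with slide row as a covariate and the trended and robust variance. Averaging probes left genes with 1 probe as they were. Slide as a block gave the same values as leaving out WT replicate 1. Vcan at its brightest probe ranged from -1.66 to -0.51 (without the arrays in slide row 2), and Has1 gave 0.06 without Tg replicate 1 and 1.72 without row 2; the cause was not tested. Over all genes, the 1 call higher remained a count of 1 under 4 alternatives and went to 0 with a gene's probes averaged, normexp with quantile normalization, probes above background on all 6 arrays, slide as a block, slide row as a covariate, a trended and robust variance, without row 2, and without any 1 replicate (0 to 0). At an unadjusted p the counts were 523 higher, 471 lower and 3 of the pathway lists. With the replicate block the count higher was 0. The titles' numbers were not shown to pair the arrays: deviations of same-numbered arrays correlated at 0.02, 0.05 and 0.13. Signal over background leaves Hapln1 unmeasured, and 3 arrays a genotype limit the rest.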
